A study of Mus musculus with 4 samples.

Results

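The endothelin system genes measured here were the 3 ligand genes Edn1, Edn2 and Edn3, the receptor genes Ednra and Ednrb, and the converting enzyme genes Ece1 and Ece2. They were listed by name and make up 7 of the 55421 genes counted in each library. Levels are given as CPM, the count of a gene scaled by the total count of its library, and 1 CPM or more was reached in 2 or more libraries by 5 of the 7 genes and by 14492 of all genes. Edn2 and Edn3 did not. RNA was sequenced from snap-frozen uteri of pregnant mice at E18.5, with 1 uterus per library. The study names the material whole uterine lysates, but its methods took only a small amount of the frozen tissue for RNA. Which part of the uterus this came from is not stated. The control group held 2 C57BL/6J mice (WT), and the other group held 2 mice of the strain B6.Cg-H2b3/FlaCmwJ, which lack the MHC class Ib molecule Qa-2 (Qa-2-). The labels name no treatment and no other genetic change. The Qa-2- strain, also named B6.K1, is an H2 congenic strain that arose in crosses of other H2 congenic strains, and it came from another supplier than the WT mice, so that Qa-2 and other strain differences cannot be told apart.

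Endothelins are short vasoactive peptides that are cut from larger precursors, first by furin-type proteases and then by the membrane metalloproteases Ece1 and Ece2. The mature peptide acts on the G protein-coupled receptors encoded by Ednra and Ednrb. In vessels, Ednra is mainly carried by smooth muscle and mediates constriction and growth, while endothelial Ednrb mediates release of nitric oxide and prostacyclin and clears endothelin from the circulation. In the uterus, endothelin also contracts the myometrium, and the system is studied in pregnancy for its part in the hypertension of preeclampsia.

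Total counts lay between 33286390 and 41041299 per library, so that 1 CPM was worth 33.3 to 41.0 counts and the floor of 3 counts 0.0731 to 0.0901 CPM. The Qa-2 genes followed the labels. H2-Q6 had 4204 and 1192 counts in the WT libraries and 3 and 3 counts in the Qa-2- libraries, and H2-Q7 had 6318, 1251, 4 and 2 counts. In edgeR the adjusted p was 0.228 for both with the filter on low genes and 0.00131 and 0.00224 without it, and DESeq2 gave 2.68e-29 and 5.89e-28. Uterine smooth muscle, endothelial and epithelial marker genes were detected in every library. Libraries of the same group differed in other tissue. Genes of trophoblast and yolk sac summed to 5.02, 54.4, 413 and 23.0 CPM in WT 1, WT 2, Qa-2- 1 and Qa-2- 2, with Prl3d1 and Gcm1 at 0 in all of them. Most of the sum in Qa-2- 1 was the yolk sac gene Afp, at 380 CPM. The trophoblast genes Psg21 and Prl3b1 had 308 and 155 counts in WT 2 and 0 in every other uterus. Tpbpa was also highest in WT 2, at 6.88 CPM against 3.29 CPM in Qa-2- 1. The libraries are from separate mice, and with 2 mice per group the smallest p that an exact two-sided permutation test can give is 0.33.

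The sequences directly before the annotated starts of 4 members are shown, because in these 4 of the 5 genes past the filter the values of both WT uteri lay above those of both Qa-2- uteri. They are RefSeq sequences of GRCm38.p6, the build of the deposited counts, read 5′ to 3′ on the strand of the gene up to the first exon, and contain no exon. Capitals mark CpG dinucleotides, the sites at which vertebrate DNA is methylated. Edn1 lies at chr13:42301476-42307990 on the plus strand, and the stretch is chr13:42301226-42301475. Ednra lies at chr8:77663031-77724464 on the minus strand (stretch chr8:77724465-77724702). Ednrb lies at chr14:103814625-103844402 on the minus strand, and its stretch, chr14:103843702-103843951, precedes the start in RefSeq and falls inside the longer gene of the deposited annotation. Ece1 lies at chr4:137862237-137965229 on the plus strand, and of its 4 annotated starts the first is shown (stretch chr4:137861987-137862236).
Edn1: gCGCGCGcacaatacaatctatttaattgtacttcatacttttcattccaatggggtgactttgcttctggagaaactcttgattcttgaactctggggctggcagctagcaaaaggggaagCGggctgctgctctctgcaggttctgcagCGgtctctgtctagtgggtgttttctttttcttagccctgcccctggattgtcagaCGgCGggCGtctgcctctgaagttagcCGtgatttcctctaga
Ednra: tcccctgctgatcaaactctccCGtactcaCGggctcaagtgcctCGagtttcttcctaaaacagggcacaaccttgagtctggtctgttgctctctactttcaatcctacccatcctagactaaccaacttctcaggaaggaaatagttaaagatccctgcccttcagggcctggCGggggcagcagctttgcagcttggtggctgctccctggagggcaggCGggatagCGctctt
Ednrb: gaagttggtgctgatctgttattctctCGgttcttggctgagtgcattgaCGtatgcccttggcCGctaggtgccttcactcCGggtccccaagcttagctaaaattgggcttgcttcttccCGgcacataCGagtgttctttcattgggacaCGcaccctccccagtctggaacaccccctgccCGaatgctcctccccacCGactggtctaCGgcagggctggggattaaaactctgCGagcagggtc
Ece1: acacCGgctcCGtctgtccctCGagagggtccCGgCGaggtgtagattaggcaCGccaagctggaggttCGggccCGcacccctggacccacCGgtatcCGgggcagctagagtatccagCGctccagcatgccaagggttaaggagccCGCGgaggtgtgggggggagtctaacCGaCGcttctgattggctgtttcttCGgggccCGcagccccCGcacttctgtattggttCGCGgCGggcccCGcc
The stretch of Ece1 held 22 CpG in 250 bases, that of Ednrb 11 in 250, that of Edn1 9 in 250 and that of Ednra 6 in 238. In windows from 250 bases before to 50 bases after the start, the 4 genes had 28, 15, 11 and 8 CpG, against a median of 7 (interquartile range 3 to 20) over 32851 such windows of all genes. Of these 4 windows, only that of Ece1 lay above that range. The letters AGATAA, bound by GATA factors, and GTGACTAA, the AP-1 element described for Edn1, were searched on both strands. Both were found in the Edn1 window, shortly after the start, and in none of the windows of the other 6 members. They occurred in 11.2% and 0.630% of all windows. Further motifs were searched in the same way. The hypoxia response core ACGTG was found in windows of Edn1, Ece1 and Ece2 (19.6% of all windows). The KLF letters CCACCC were found in windows of Edn2, Edn3, Ednrb, Ece1 and Ece2 (31.5%). The general AP-1 letters TGANTCA and the ETS, CArG and TATA letters were found in no member window. No methylation or factor binding was measured, and a match of letters is a description of the sequence alone.

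To see whether the system as a whole differed between the genotypes, all 14492 genes were compared in 1 fit. Levels of Ednra, Ednrb, Ece1 and Edn1 were higher in both WT uteri than in both Qa-2- uteri, by 1.57, 2.54, 1.76 and 1.28 times in mean CPM, and the groups overlapped for Ece2. None of the 5 members reached an adjusted p under 0.05 by the quasi-likelihood test of edgeR (Benjamini-Hochberg adjustment over all genes), nor did any other gene (0.0% of genes called). At an unadjusted p under 0.05, 3 of the 5 members (Ece1, Ednra and Ednrb) were higher in WT and 0 were lower, against 8.09% and 7.09% of all genes. With DESeq2, 2 of the 5 members, Ece1 and Ednrb, were called higher in WT at an adjusted p under 0.05, where 2.79% of all genes were higher and 2.04% lower. Groups did not overlap in 4 of the 5 members, all higher in WT, on TMM-scaled levels, on which 25.4% of all genes were higher and 24.5% lower without overlap. On library totals the same 4 members did not overlap, with 18.7% and 32.0% of all genes. On the log2 scale, the members' median difference between WT and Qa-2- was 0.74, beside a median of 0.012 over all genes tested, whose 5th and 95th percentiles were -0.93 and 0.90. In whole tissue, fewer cells of a type and less RNA per cell cannot be told apart, which holds for each difference given here.

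**Figure D1:**
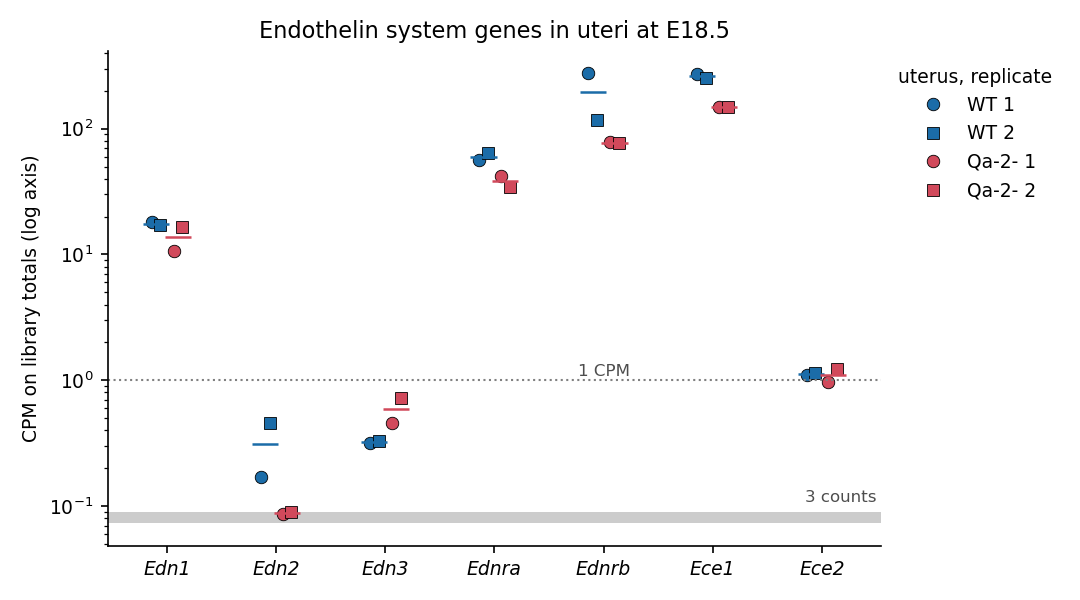
Levels of the 7 endothelin system genes in each uterus, in CPM on library totals on a log axis, with short lines at group means (n = 2), a dotted line at 1 CPM and a grey band at 3 counts. Both WT uteri lie above both Qa-2- uteri for Edn1, Edn2, Ednra, Ednrb and Ece1 and below them for Edn3, the WT uteri differ by 2.35 times for Ednrb (276 and 117 CPM), and Edn2 and Edn3 stay below 1 CPM in all uteri.

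Per gene length, on the TPM scale, which divides each count by the exon length of the gene before scaling, the order of the members was much the same in both genotypes. In WT uteri Ece1 (145.5 TPM on average) and Ednrb (132.7 TPM) stood highest and overlapped. They were followed by Ednra (32.2 TPM) and Edn1 (24.0 TPM), which did not overlap. Edn2 and Ece2 (both 0.643 TPM, for Ece2 a lower limit) overlapped, and Edn3 (0.231 TPM) lay below them. In Qa-2- uteri Ece1 (85.3 TPM) lay above Ednrb (55.0 TPM) without overlap, while Ednra (21.2 TPM) and Edn1 (19.2 TPM) overlapped. Ece2 (0.650 TPM, also a lower limit), Edn3 (0.430 TPM) and Edn2 (0.182 TPM) came last, in that order and without overlap.

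Edn1 encodes endothelin-1, the main endothelin of vascular endothelium and a potent vasoconstrictor. It accounted for 95.3% to 97.7% of the summed TPM of the 3 ligand genes in every uterus. Edn1 was measured at 18.0 and 17.0 CPM in WT and at 10.7 and 16.7 CPM in Qa-2- uteri. The WT values lay close together and just above the higher Qa-2- value, 1.02 times in the nearest pair, while the 2 Qa-2- uteri differed by 1.57 times. Group means were 17.5 ± 0.673 and 13.7 ± 4.26 CPM (SD, n = 2 each). The log2 fold change was 0.46 (SE 0.25, adjusted p = 0.438, edgeR), and 15.2% of the genes tested had a larger one. It was 0.19 without Qa-2- 1 and 0.79 without Qa-2- 2, so its size rested on which Qa-2- uterus was used.

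Edn2 encodes endothelin-2, a peptide that acts on the same receptors and is known for ovarian and gut expression. Its counts were 7 and 18 in WT and 3 and 3 in Qa-2- uteri, the latter at the floor. Edn3, whose product prefers the receptor Ednrb and guides neural crest cells, had 13 and 13 counts in WT and 16 and 24 counts in Qa-2- uteri. For summed counts per library total, the WT over Qa-2- ratio of Edn2 was 3.53 (exact Clopper-Pearson 95% interval 1.41 to 10.5), and that of Edn3 was 0.551 (0.323 to 0.926). These intervals cover counting error only and leave out the spread between mice. In a fit without the filter on low genes, the log2 fold changes were 1.90 (SE 1.12, adjusted p = 0.640, edgeR) for Edn2 and -0.75 (SE 0.72, adjusted p = 0.784, edgeR) for Edn3. Neither difference was detectable by this fit at this depth.

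Ednra encodes the endothelin A receptor, the constrictor receptor of smooth muscle. Its levels were 55.9 and 63.8 CPM in WT and 41.9 and 34.5 CPM in Qa-2- uteri. All 4 uteri were ordered by genotype, with 1.34 times between the lowest WT and the highest Qa-2- value. The group means, WT first, were 59.9 ± 5.56 and 38.2 ± 5.26 CPM (SD, n = 2 each). The log2 fold change was 0.74 (SE 0.19, unadjusted p = 0.00979, adjusted p = 0.257, edgeR), with a larger one in 7.43% of the genes tested, and DESeq2 gave an adjusted p of 0.0729. Without single libraries it ranged from 0.59 to 0.92. The study had itself picked genes of the developing circulation as higher in WT from these same libraries, so the direction of a vascular gene such as Ednra is not independent evidence.

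Ednrb encodes the endothelin B receptor, which endothelium uses for dilation and for clearance of endothelin. It was measured at 276 and 117 CPM in WT and at 78.4 and 76.6 CPM in Qa-2- uteri. The high mean of WT came from 1 uterus, WT 1, which had 2.35 times the level of WT 2, while the Qa-2- values lay close together. The lower WT value was 1.50 times the higher Qa-2- value. Means were 196.7 ± 112.1 and 77.5 ± 1.27 CPM (SD, n = 2 each), and the log2 fold change was 1.43 (SE 0.41, unadjusted p = 0.0165, adjusted p = 0.275, edgeR), with a larger one in 1.77% of the genes tested. DESeq2 gave an adjusted p of 0.0165. Without WT 1 the log2 fold change was 0.68 (adjusted p = 0.208, edgeR), and without WT 2 it was 1.91 (adjusted p = 0.0381, edgeR), each with 1 WT library that is assumed to vary like the Qa-2- libraries. WT 1 also held the higher H2-Q6 and H2-Q7 counts given above. Prl8a2, a marker of stroma and decidua, was far higher in WT 1 too, at 107 CPM against 1.95 CPM in WT 2. In Qa-2- uteri it was at 3.98 and 13.9 CPM. Other markers of that list, Col1a1, Pdgfra and Hand2, were lower in WT 1 than in WT 2. The part of such tissue differences in the level of Ednrb was not tested.

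Ednrb is known to be carried also by melanocytes and glia of the neural crest, and 2 of 8 marker genes of these cells passed the filter, with 0 called. The markers summed to 7.70 and 4.26 CPM in WT and to 3.52 and 4.66 CPM in Qa-2- uteri. Of the sum in WT 1, 5.46 CPM came from Mlana alone, so its place above the other uteri rested on this 1 gene. Tyr, the key enzyme of pigment synthesis, was at 0 in all 4 uteri. Sox10, the transcription factor of these lineages, had 0, 0, 4 and 3 counts, and the melanogenic enzyme gene Dct 0, 0, 0 and 1 counts. Mlana, a melanosome gene, had 224 counts in WT 1, 6 in WT 2 and 0 in both Qa-2- uteri. Its part in the level of Ednrb in WT 1 was not tested.

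Of both receptors together, Ednrb made up 86.4% and 70.3% of the summed TPM in WT and 70.6% and 74.0% in Qa-2- uteri. The share was higher in WT 1 than in the other 3 uteri, and WT 2 had the lowest. The log2 ratio of Ednra to Ednrb counts within a library was -2.30 and -0.88 in WT and -0.90 and -1.15 in Qa-2- uteri. The groups overlapped, with a difference of -0.56 (exact permutation test, two-sided, p = 1, adjusted p = 1 over 7 ratios). The SD of the ratio was 1.01 in WT, where WT 1 stood apart, and 0.18 in Qa-2- uteri. Without WT 1 the difference changed sign, to 0.15.

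Ece1 encodes the endothelin converting enzyme that releases active endothelin-1 from its precursor at the cell surface and within endothelium. It was measured at 271 and 255 CPM in WT and at 149.7 and 149.1 CPM in Qa-2- uteri. Values were close within each genotype, and among the 5 members past the filter the gap between the groups was widest here, with the lowest WT value 1.70 times the highest Qa-2- value. The means of WT and Qa-2- were 263 ± 11.3 and 149.4 ± 0.407 CPM (SD, n = 2 each). The log2 fold change was 0.91 (SE 0.18, unadjusted p = 0.00321, adjusted p = 0.246, edgeR), with a larger one in 4.88% of the genes tested. DESeq2 gave an adjusted p of 0.00083. Leaving out each uterus in turn moved the log2 fold change only from 0.85 to 0.94.

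Ece2 encodes a converting enzyme that works in acidic compartments and is best known from neural and endocrine cells. It had 45 and 45 counts in WT and 34 and 41 counts in Qa-2- uteri, or 1.10, 1.14, 0.974 and 1.23 CPM. The groups overlapped, the means were 1.12 ± 0.0323 and 1.10 ± 0.183 CPM (SD, n = 2 each), and the log2 fold change was 0.12 (SE 0.39, adjusted p = 0.901, edgeR). Of the exonic bases of Ece2, 57.5% are shared with the overlapping gene Gm49333 on the same strand, which had 0 counts in every library. Read pairs assigned to both genes were not counted, so the level of Ece2 is a lower limit. The share of Ece1 in the summed TPM of both enzyme genes, 99.2% to 99.6%, is an upper limit for the same reason.

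**Figure D2:**
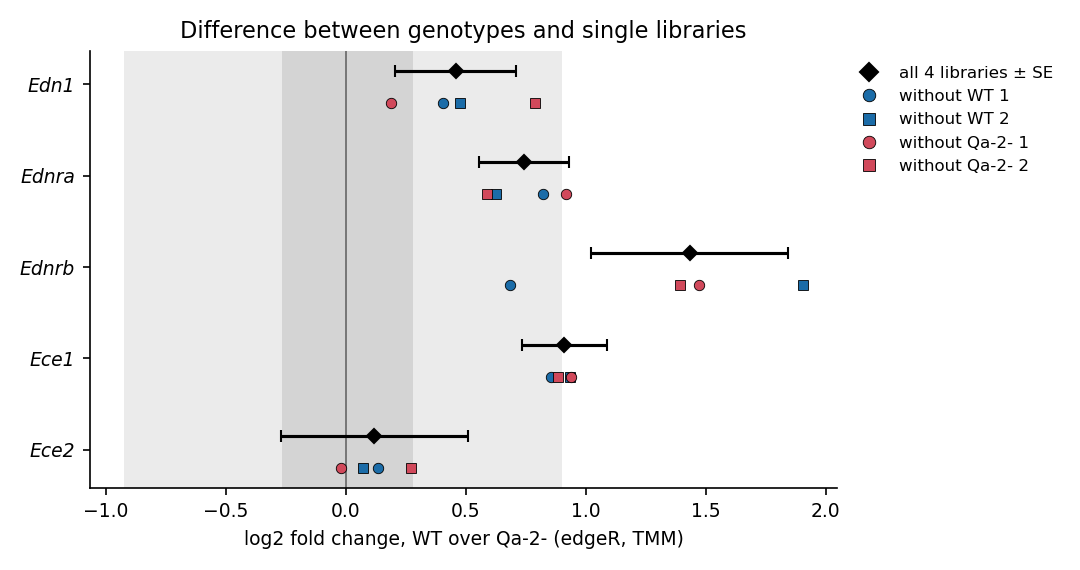
Log2 fold change, WT over Qa-2-, for the 5 members that passed the filter, with diamonds and bars for the fit of all 4 libraries ± SE and coloured points for fits without 1 library; dark shading spans the quartiles and light shading the 5th to 95th percentile of all 14492 genes. The points of Ece1 lie together between 0.85 and 0.94, those of Ednrb run from 0.68 without WT 1 to 1.91 without WT 2, and those of Ece2 lie around 0.

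As endothelin genes are carried by particular cells, their levels were set beside marker genes of vessels and muscle. All 10 endothelial markers, such as Cdh5, Kdr and Tie1, had an unadjusted p under 0.05 and were higher in WT, as 8.09% of all genes were. Their median log2 difference was 0.88 (0.61 to 1.66), with none at an adjusted p under 0.05 in edgeR and 8 in DESeq2, which called 2.79% of all genes higher. Without the filter on low genes edgeR called 1 of them, Cldn5 (adjusted p = 0.0322). Their summed level was 1447 and 1251 CPM in WT and 685 and 678 CPM in Qa-2- uteri, and none was at 0. As vascular genes, they are no independent evidence of direction either. The 8 smooth muscle markers summed to 22507 and 35784 CPM in WT and to 21018 and 12063 CPM in Qa-2- uteri, with a median log2 fold change of 0.90, 0 genes at an unadjusted p under 0.05 in edgeR and 2 called by DESeq2. The 6 pericyte markers summed to 295 and 500.2 CPM in WT and to 342 and 266 CPM in Qa-2- uteri. The median log2 fold changes of 5 mesothelial and 4 erythroid markers were larger, at 3.42 and 2.50. Endothelial, smooth muscle, mesothelial and erythroid markers were thus all higher in WT by their medians, as Ece1, Ednra and Ednrb were. So were pericyte (0.48), stromal and decidual (0.60) and leukocyte markers (0.44). Medians were lower in WT for markers of uterine epithelium (-0.81), mast cells (-0.20), neural crest (-0.43) and trophoblast and yolk sac (-2.50). The part of these tissues in the differences was not tested.

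Within a library, Ece1 stayed in a narrow range relative to the endothelial markers. Its log2 level minus their mean log2 level was 1.28 and 1.32 in WT and 1.39 and 1.39 in Qa-2- uteri, so that relative to these markers Ece1 was slightly lower in WT (difference -0.089, exact permutation test, two-sided, p = 0.333, adjusted p = 0.778 over 7 ratios). For Edn1 the same measure was -2.63 and -2.59 in WT and -2.42 and -1.77 in Qa-2- uteri, also lower in both WT uteri (difference -0.51, exact permutation p = 0.333, adjusted p = 0.778). This difference was -0.84 without Qa-2- 1 and -0.19 without Qa-2- 2. Ednra relative to endothelial markers was -0.99 and -0.68 in WT and -0.45 and -0.72 in Qa-2- uteri, with overlap. Ednrb relative to the same markers was 1.31 in WT 1, 0.20 in WT 2, and 0.45 and 0.43 in Qa-2- uteri. WT 1 was the highest and WT 2 the lowest, the difference was 0.31 (exact permutation p = 1, adjusted p = 1), and without WT 1 it was -0.25. Relative to smooth muscle markers, Ednra was -4.96 and -5.50 in WT and -5.42 and -4.84 in Qa-2- uteri, a difference of -0.096 with overlap (exact permutation p = 0.667, adjusted p = 0.933). The log2 ratio of Ece1 to Edn1 was 3.91 in both WT uteri and 3.81 and 3.16 in Qa-2- uteri. None of these 7 ratios could reach p under 0.05 in this design, and those of Ece1 and that of Ednra over endothelial markers were added after the levels were seen.

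**Figure D3:**
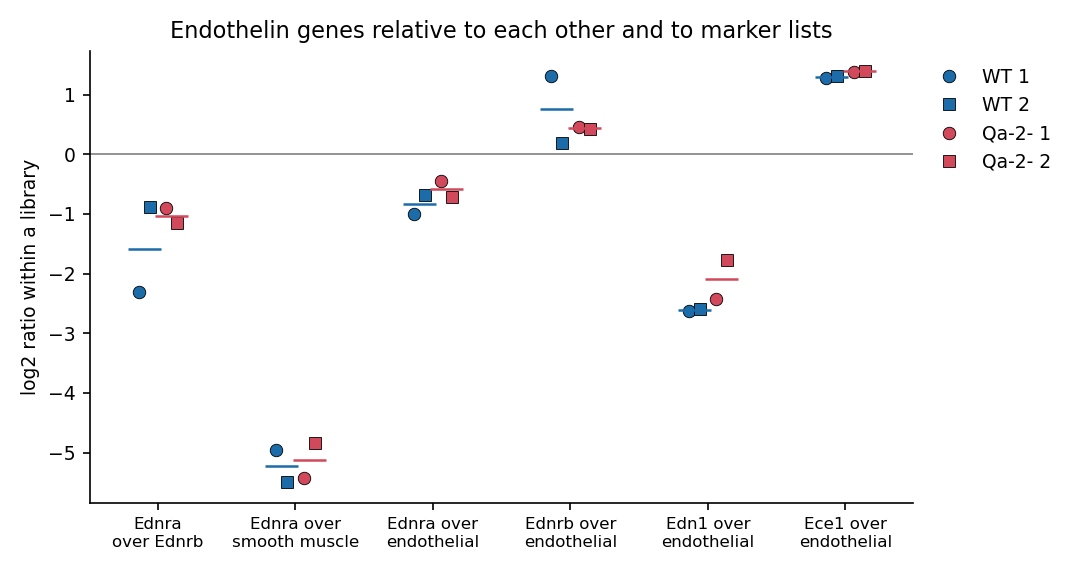
Log2 ratios within each uterus of endothelin genes to each other and to the mean log2 CPM of endothelial or smooth muscle markers, with lines at group means (n = 2). Ednra over Ednrb and Ednrb over endothelial markers show WT 1 apart from the other 3 uteri, while Ece1 over endothelial markers lies between 1.28 and 1.39 in all 4.

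The wider endothelin pathway was represented by 57 other genes in 4 lists, of which 53 passed the filter. In edgeR 0 of them had an adjusted p under 0.05, and at an unadjusted p under 0.05 5 were higher and 6 lower in WT, near the 8.09% and 7.09% of all genes, so that the counts of this pathway and of its lists are no result about them. Their median was 0.11 on the log2 scale. DESeq2 called 3, all higher in WT (Rgs4, Tal1 and Ets1), where it called 2.79% of all genes higher and 2.04% lower. Of 12 genes that process or degrade the peptides, 8 passed, with a median of -0.30, 0 higher and 1 lower at an unadjusted p under 0.05. The 1 gene was Mme, encoding neprilysin, a protease that degrades endothelin, at 48.2 and 55.6 CPM in WT and 87.5 and 75.6 CPM in Qa-2- uteri (log2 fold change -0.56, unadjusted p = 0.0232, adjusted p = 0.286, edgeR). The proprotein convertases, which make the first cut in the precursor, gave log2 fold changes of -0.59 (Pcsk6), -0.51 (Furin), -0.065 (Pcsk7) and 0.18 (Pcsk5). The mast cell proteases Cma1, Cpa3 and Mcpt4, which can generate or destroy endothelin, gave -0.39, -0.21 and -0.19. Ecel1, Mmel1, Kel and Phex, relatives of the converting enzymes, had at most 9 counts in any library.

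Of the 20 genes for G proteins, phospholipase C and their effectors, all passed the filter, with a median of 0.013, 0 higher and 1 lower at an unadjusted p under 0.05. Gna12, a G protein alpha subunit, and Rock2, a kinase that promotes smooth muscle contraction, had the highest log2 fold changes (0.45 each), and the IP3 receptor genes Itpr3 and Itpr2 the lowest (-0.77 and -0.51). Itpr2 was the gene with an unadjusted p under 0.05 (0.0356, adjusted p = 0.308, edgeR). Of 13 genes listed for receptor desensitization and trafficking, 3 were higher and 3 lower at that level, with a median of 0.17. Rgs4, a GTPase activator that shortens Gq signalling, was measured at 16.6 and 41.8 CPM in WT and at 7.04 and 4.51 CPM in Qa-2- uteri. Both WT uteri lay above both Qa-2- uteri, and the log2 fold change was 2.43 (adjusted p = 0.246 in edgeR and 0.000182 in DESeq2). Grk5, a receptor kinase, and Rgs3, another GTPase activator, were also higher (0.80 and 0.67), whereas Grk3, another receptor kinase, and Rgs2, a Gq regulator linked to blood pressure, were lower (-0.82 and -0.66). The third lower gene of this list was Jag1 (-0.72), a Notch ligand and not a desensitization gene.

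Among 12 regulators of Edn1 transcription, 2 were higher and 1 lower at an unadjusted p under 0.05, with a median of 0.16. Tal1, a haematopoietic and endothelial factor, had a log2 fold change of 1.02, and Ets1, an endothelial ETS factor, one of 0.87, with levels of 54.6 and 57.6 CPM in WT and of 34.1 and 31.5 CPM in Qa-2- uteri. Smad3, a transducer of TGF-beta, had -0.79 and Klf4, a flow-regulated factor, -0.49. Gata2, whose motif stands in the Edn1 window, had 0.21, the AP-1 genes Jun and Fos had 0.36 and 0.28, and Hif1a had -0.081. No adjusted p in this list was under 0.05 in edgeR.

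**Figure D4:**
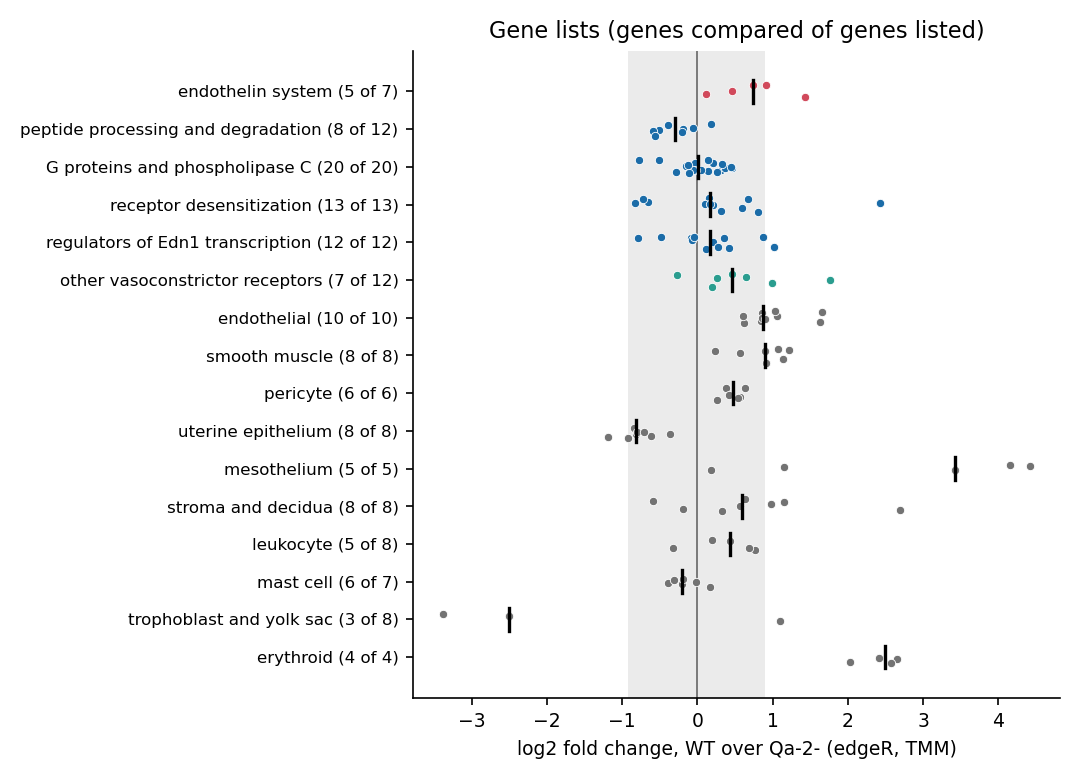
Log2 fold change, WT over Qa-2-, of each gene that passed the filter in the endothelin system (red), the pathway lists (blue), other vasoconstrictor receptors (green) and cell type markers (grey), with black lines at list medians and shading for the 5th to 95th percentile of all genes. The endothelin system (median 0.74) and the endothelial markers (0.88) lie to the right of 0, and the peptide processing list (-0.30) to the left.

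The genes whose profiles over the 4 uteri were nearest to each member were found by the root mean square distance of mean-centred log2 CPM, over 14293 genes with a mean of at least 1 CPM. Nearest to Ece1 were Sema6a (distance 0.029), Egfl7 (0.030), which is in the endothelial list, and G0s2 (0.031), and 61 genes lay within a distance of 0.1. Ednra had Slc46a3 (0.017), Slc16a10 (0.029) and Arc (0.035) nearest, with 147 genes within 0.1. The profile of Edn1 was shared most closely by Bik (0.031), Cd52 (0.043) and the pseudogene Gm5526 (0.048), with 43 genes within 0.1. Ednrb stood more alone, with 4 genes within 0.1, Slc16a12 (0.076) and B2m (0.094) among them. B2m encodes beta-2 microglobulin, the light chain of MHC class I molecules, and was measured at 1279 and 560 CPM in WT and at 364 and 416 CPM in Qa-2- uteri, so that it shared the high level in WT 1. For Ece2, which hardly varied, 932 genes lay within 0.1. With 4 libraries a near profile is easily met, and these distances are a description only.

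**Figure D5:**
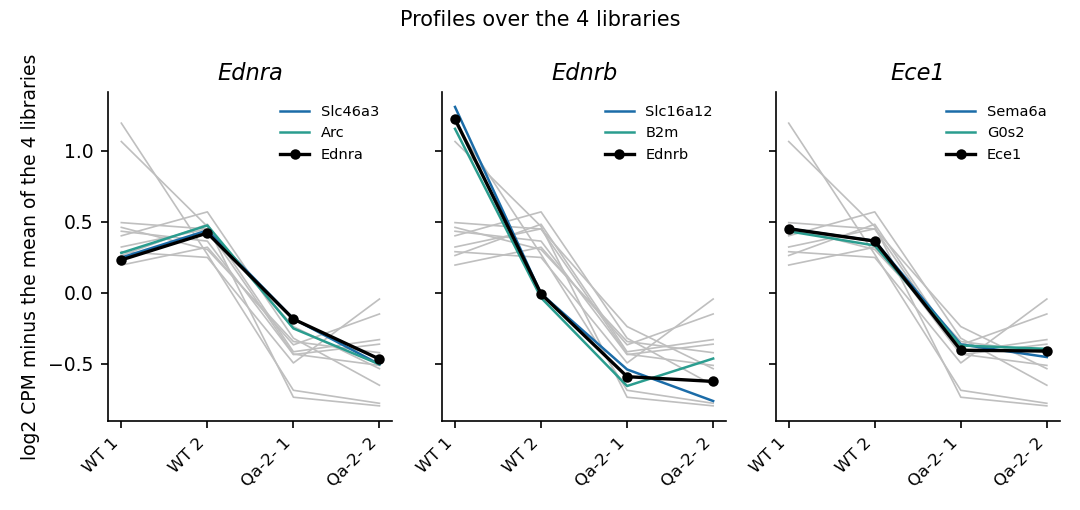
Log2 CPM minus its mean over the 4 uteri for Ednra, Ednrb and Ece1 (black), the nearest and the third nearest gene of each (coloured) and the 10 endothelial markers (grey); lines only join the values of a gene. Ece1 lies within the endothelial markers in all uteri, and the peak of Ednrb in WT 1 is met by Slc16a12 and B2m.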

How the data were processed

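RNA of frozen tissue from 4 uteri was sequenced by the authors in strand-specific read pairs. The deposited values are raw counts, as pairs per gene. Pairs were counted, per the file headers, with featureCounts 2.0.0 on the reverse strand where each end had a mapping quality of 3 or more, and the submitters' processing notes name STAR 2.7.3a and GRCm38.p6. Of the identifiers, 55240 were named from GENCODE M21. Groups follow the labels. Replicates were not copies of 1 library (188.4 and 117.8 chi-square per gene in WT and Qa-2-). The filter was 1 CPM or more in 2 or more libraries. TMM scaling and the quasi-likelihood test of edgeR 4.0.16 in R 4.3.3 followed, with Benjamini-Hochberg adjustment over the genes tested. CPM and TPM, from deposited exon lengths, use library totals. Alternatives were DESeq2 1.42.0, other scalings and filters, a replicate block and leaving out each library. Log2 ratios used log2 CPM with a prior count of 2, except gene to gene ratios, and SciPy 1.17.1. In simulated counts of 14492 genes, edgeR recovered 17 of 100 genes changed by 1 and 92 of 100 changed by 2 on the log2 scale. It also called 26 unchanged genes, and only genes well above the filter were changed. In the real counts the same fit called 0 genes, and H2-Q6 and H2-Q7 had an adjusted p of 0.228 (edgeR). The simulation thus does not match the real fit, and its counts do not measure the power of that fit. The members, lists and rules for naming genes were chosen with earlier results of these data known: all members, in pathway lists the 2 highest and 2 lowest genes, all peptide processing genes and the called genes. Genes at an unadjusted p under 0.05, Gata2, Jun, Fos, Hif1a and Mlana were named after their values were seen. So were the tissue markers Prl8a2, Col1a1, Hand2, Pdgfra, Ptprc, Ncr1, Afp, Psg21, Prl3b1 and Tpbpa. One gene near Ednrb in profile is not reported here.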

Additional observations from a re-analysis of the deposited data

How the results depend on the processing

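In edgeR 0 genes were called with all 4 libraries, and the count was 700 with DESeq2 (404 higher and 296 lower in WT), 61 without a filter, 2 with the replicate block, and 0 to 93 when 1 library was left out (93 without WT 2, 4 without WT 1). DESeq2 called 2 endothelin members and 3 pathway genes, and leaving out 1 library gave 0 to 1 members (Ednrb without WT 2). The members' median log2 fold change of 0.74 was 0.65 on library totals, 0.60 for genes with at least 10 counts in every sample, which adds Edn3, and 0.62 to 0.92 without single libraries. Ece2 reversed to -0.019 without Qa-2- 1 (range -0.019 to 0.27). Without single libraries, the difference in log2 ratio ran from -1.27 to 0.15 for Ednra over Ednrb (0.15 without WT 1), from -0.84 to -0.19 for Edn1 over endothelial markers, from -0.39 to 0.20 for Ednra over smooth muscle markers (0.17 without WT 2, 0.20 without Qa-2- 2) and from -0.25 to 0.87 for Ednrb over endothelial markers (-0.25 without WT 1). The cause of these changes was not tested.

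Same-numbered mice are different animals, and the deviations of same-numbered libraries correlated at -0.37 over 14492 genes. With the replicate block the log2 fold change was 0.91 for Ece1 and 1.31 for Ednrb, and no member was called. Pairing the numbers crosswise, an alternative chosen after seeing the data, called 0 genes. Edn1, Ednra, Ednrb and Ece1 stayed higher in WT under every alternative run. Depth limits Edn2 and Edn3, at 3 to 24 counts per library.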

Other observations

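Receptors for other vasoconstrictors were looked at beside those for endothelin. Of 12 such genes 7 passed the filter, with a median log2 fold change of 0.45, and 2 were higher and 0 lower in WT at an unadjusted p under 0.05, against 8.09% and 7.09% of all genes. At an adjusted p under 0.05 there were 0 in edgeR and 1, higher, in DESeq2 (2.79% of all genes higher, 2.04% lower). The list also holds Npr3, the clearance receptor for natriuretic peptides and no vasoconstrictor receptor (log2 fold change 0.65, adjusted p = 0.371 in edgeR). Oxtr, the oxytocin receptor of the myometrium, was measured at 65.1 and 127 CPM in WT and at 30.7 and 30.1 CPM in Qa-2- uteri (log2 fold change 1.76, adjusted p = 0.246 in edgeR and 0.000338 in DESeq2). Tbxa2r, the thromboxane receptor, stood at 10.3 and 14.5 CPM in WT and at 7.53 and 5.77 CPM in Qa-2- uteri (log2 fold change 0.99, adjusted p = 0.281 in edgeR). Agtr1a, the main angiotensin receptor of vessels, overlapped between the groups (0.45, adjusted p = 0.524 in edgeR), as did Ptgfr, the receptor for prostaglandin F2 alpha, with the lowest value of the list (-0.27). Uts2r, the urotensin receptor, had 0 counts in every library.

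In the lists of other tissue markers, 0 genes had an adjusted p under 0.05 in edgeR, but without the filter on low genes Upk3b (0.00224), Nkain4 (0.0185), Lrrn4 (0.0312), Hbb-bs (0.0134) and Hbb-bt (0.0480) did, named after their values were seen. DESeq2 called 4 erythroid, 3 mesothelial, 2 stromal and 1 leukocyte gene higher and 1 epithelial gene lower in WT, where it called 2.79% of all genes higher and 2.04% lower. Counts at an unadjusted p under 0.05 are set against 8.09% higher and 7.09% lower of all genes. The 4 erythroid genes summed to 341 and 658 CPM in WT and to 111 and 75.6 CPM in Qa-2- uteri, with all 4 at an unadjusted p under 0.05 in edgeR. Of 5 mesothelial markers 4 were higher in WT at that level, among them Upk3b, with 952 and 646 counts in WT and 75 and 59 in Qa-2- uteri. The 8 markers of uterine epithelium summed to 2216 and 1268 CPM in WT and to 3120 and 3199 CPM in Qa-2- uteri, with a median log2 fold change of -0.81 and 2 lower in WT at an unadjusted p under 0.05. Of 8 stromal and decidual markers 3 were higher at that level (median 0.60), and of 8 leukocyte markers, 5 of which passed the filter, 1 was higher (median 0.44). Without overlap on TMM-scaled levels, 4 stromal and decidual markers were higher and 1, Pdgfra (log2 fold change -0.59), lower in WT. Of the leukocyte markers 2 were higher and 1, Ptprc (-0.33), lower without overlap, against 25.4% and 24.5% of all genes. Ncr1, a leukocyte marker below the filter, had 9 and 13 counts in WT and 23 and 32 in Qa-2- uteri. The mast cell list, which holds the same proteases as the peptide processing list, had 6 of 7 genes past the filter, 0 at an unadjusted p under 0.05, and a median of -0.20. For trophoblast and yolk sac, 3 of 8 genes passed, with 0 at that level. Afp, the alpha-fetoprotein of yolk sac, had 158 and 1268 counts in WT and 13253 and 689 in Qa-2- uteri, highest in Qa-2- 1.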
